A study of Eublepharis macularius with 8 samples.

Results

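The genes of retinoic acid supply and reception were followed in the teeth of the leopard gecko (Eublepharis macularius), which sheds and renews its teeth all its life. The set was defined by 9 exact gene symbols, and 6 of them matched a row of the deposited counts, out of 22407 rows matched to a gene name. These were STRA6 (uptake of vitamin A), ALDH1A2 and ALDH1A3 (synthesis) and RARA, RARB and RARG (receptors). The breakdown enzymes CYP26A1, CYP26B1 and CYP26C1 were not analysed here, so the set covers synthesis and reception only. All 6 matched genes passed the filter on low counts and were among the 15491 genes tested.

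Functional teeth, those in use, were compared with developing teeth, which form as their replacements, with 4 bulk RNA-seq libraries of each. Female animals gave replicates 1 to 3 of both groups, each a pool of 3 teeth. The fourth replicate was male, a pool of 10 teeth in the functional group and of 11 in the developing group. All animals were adults, and the labels name no treatment and no genetic change. The labels use the term biological replicate but do not state whether different animals lie behind each library, so the p-values cover the spread among these libraries, part of which may be technical. Sex, number of teeth and anything else that set replicate 4 apart cannot be told apart.

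Retinoic acid is a hormone-like derivative of vitamin A. Retinol arrives in the blood on the carrier protein RBP4, enters cells through the membrane receptor STRA6, and is oxidized first to retinal, chiefly by RDH10, and then to retinoic acid by the ALDH1A enzymes. CYP26 enzymes break it down, so that its level in a tissue is set locally. Inside cells it is carried by the CRABP proteins to the receptors RARA, RARB and RARG, which bind DNA as partners of RXR receptors and switch on target genes, among them RARB itself. In rodents, lack of vitamin A disturbs the enamel organ, and in zebrafish retinoic acid is needed for the pharyngeal teeth to start.

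The functional libraries held between 21020159 and 30935120 estimated counts and the developing libraries between 14144573 and 21739182. Type I collagen genes took 29.2% to 33.2% of the matched counts in functional libraries and 4.37% to 20.6% in developing libraries, with developing replicates 3 and 4 lowest. The tissue labels were checked against marker genes, summed as CPM (counts relative to library size, with library sizes scaled by TMM, edgeR's trimmed-mean normalization). The 8 epithelium and ameloblast markers with a row summed to 334 to 1523 CPM in functional and 4731 to 30969.5 CPM in developing libraries. In developing libraries most of that sum came from the enamel matrix genes AMELX and AMBN. The 1523 CPM belonged to functional replicate 1, while the other functional libraries summed to 334 to 464 CPM. Functional replicate 1 held 470 CPM of AMELX and 461 CPM of AMBN. The other functional libraries held 3.56 to 3.91 CPM of AMELX and 14.1 to 51.6 CPM of AMBN. The general epithelial marker EPCAM overlapped, at 87.6 to 147 CPM in functional and 56.5 to 119 CPM in developing libraries (log2 fold change 0.16, adjusted p = 0.752). The 7 odontoblast and dental mesenchyme markers summed to 263532 to 279755 CPM in functional and 26407 to 125060 CPM in developing libraries, nearly all of it from COL1A1. The only one of the 7 called was the dental mesenchyme factor LHX8, which fell (log2 fold change -1.74, adjusted p = 0.0276). In bulk teeth, fewer cells of a type and less RNA per cell cannot be told apart. CPM are not corrected for transcript length, so levels are compared between groups and not between genes.

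None of the 6 genes passed the test between tissues over all genes (the quasi-likelihood test of edgeR with a Benjamini-Hochberg threshold of 0.05), with 0 above and 0 below in functional teeth. Over all genes tested, 2.81% were called, 0.8% higher and 2.01% lower in functional teeth. At an unadjusted p under 0.05, ALDH1A2 and RARG had a positive and STRA6 a negative log2 fold change, where 22.3% of all genes reached that level, 9.53% with a positive and 12.8% with a negative value. DESeq2's Wald test called 2 of the 6, ALDH1A2 and RARG, with positive values, where it called 9.69% of the genes it tested, 4.1% higher and 5.59% lower. The median log2 fold change of the 6 genes was -0.30, against 0.00127 over all genes, and 4 of the 6 were negative. Functional and developing libraries did not overlap for 1 of the 6, RARG, with all functional libraries above, where 15% of all genes tested did not overlap, 6.42% with functional above and 8.6% with functional below.

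**Figure D1:**
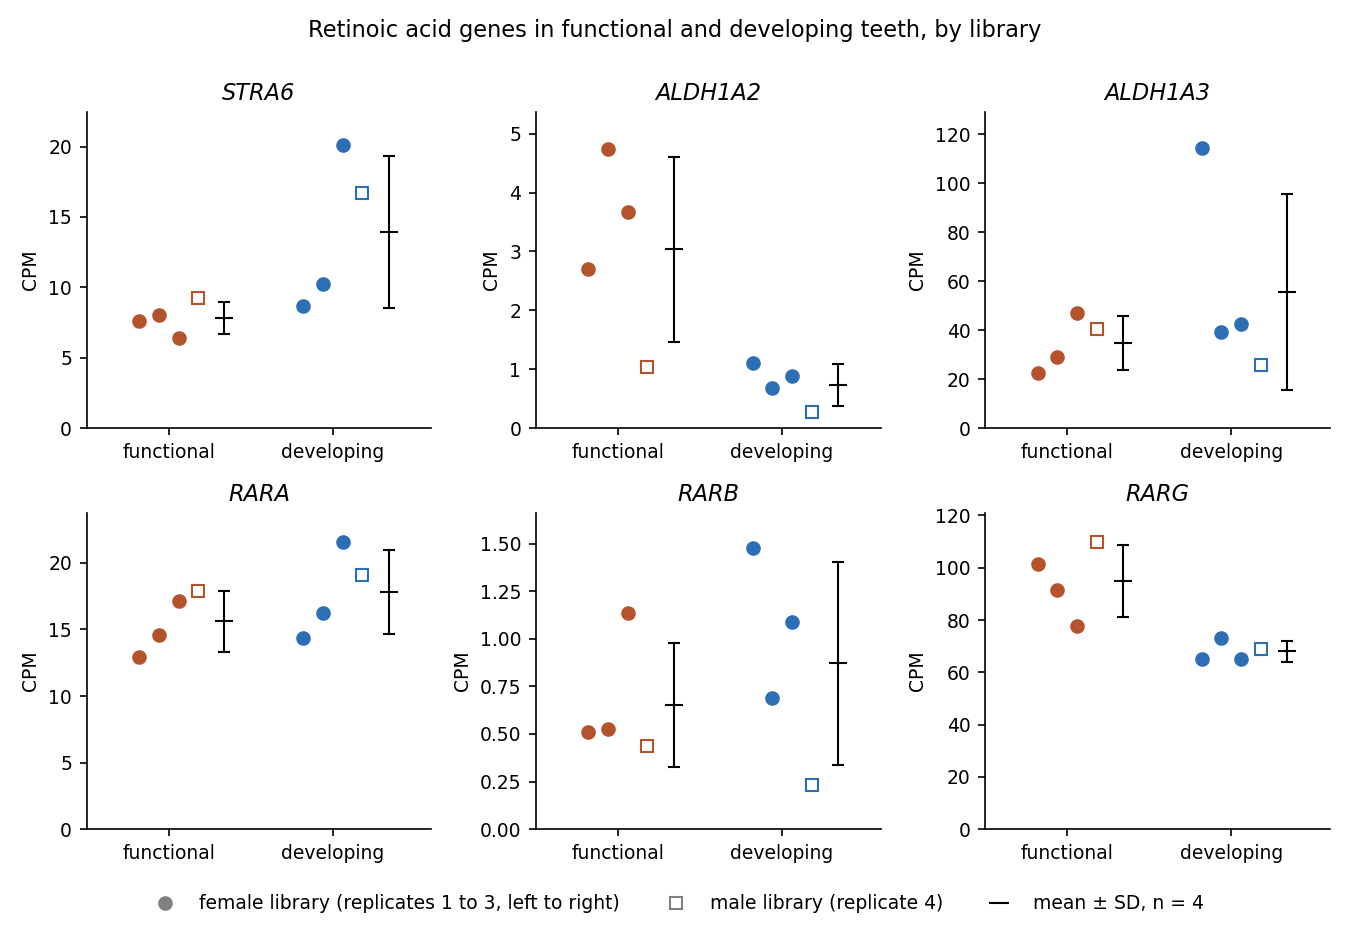
CPM (vertical axes, linear from 0) of the 6 genes in each library of functional and developing teeth. Circles are female libraries, open squares male libraries, and bars the mean ± SD of 4 libraries. ALDH1A2 lies above 2.7 CPM in the 3 female functional libraries and at or under 1.11 CPM elsewhere, and RARG separates the tissues without overlap.

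Uptake came first in the order of the pathway. STRA6, the membrane receptor that takes up retinol from its carrier protein, had 7.62, 8.03, 6.41 and 9.21 CPM in functional replicates 1 to 4, against 8.65, 10.2, 20.1 and 16.7 CPM in developing replicates 1 to 4. The functional libraries lay close together, and developing replicates 3 and 4 stood above all others, while developing replicate 1 lay under functional replicate 4. Means were 7.82 ± 1.16 CPM in functional teeth and 13.9 ± 5.4 CPM in developing teeth (SD, n = 4). The log2 fold change was -0.83 ± 0.28 (SE, adjusted p = 0.143), or -0.26 without developing replicates 3 and 4, a choice made after the data were seen. Those were also the developing libraries with the least type I collagen and the highest epithelium marker sums, mostly enamel matrix genes, 19344.5 and 30969.5 CPM against 4731 and 9034 CPM in developing replicates 1 and 2, and the part of this in the STRA6 values was not tested.

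The genes of the synthesis enzymes had log2 fold changes of opposite sign. ALDH1A2, also called RALDH2, is the main retinoic acid-forming enzyme of the early vertebrate embryo. It had 2.71, 4.75, 3.67 and 1.04 CPM in functional replicates 1 to 4, against 1.11, 0.691, 0.881 and 0.269 CPM in developing replicates 1 to 4. The 3 female functional libraries stood above everything else, and the male library was the lowest of its tissue in each group. Because of it the groups overlapped, with the male functional library just under developing replicate 1. Within each replicate number the functional library was the higher, by 1.23, 2.63, 1.95 and 1.66 on the log2 scale (CPM with a prior count of 2). Here and below, libraries of the same number are not known to be pairs. How many of all genes keep the same direction in every number was not counted. Means were 3.04 ± 1.57 CPM in functional teeth and 0.737 ± 0.355 CPM in developing teeth, 4.12-fold apart (log2 fold change 2.04 ± 0.56, adjusted p = 0.0874).

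The call for ALDH1A2 differed between fits. Once sex was held in the model as a covariate, the log2 fold change was 2.02 and the adjusted p 0.0221, and in DESeq2 without a covariate they were 2.08 and 0.0071. Among the female libraries alone they were 2.05 and 0.0977, in a fit that called 1 gene higher and 2 lower of all tested, and with the replicate number as a block they were 2.01 and 0.057. The other edgeR fits did not call it either. Leaving out each library in turn gave log2 fold changes between 1.74 and 2.34. These values rest on few reads, 24 to 117 counts per functional library and 7 to 27 per developing library. Macrophage markers were also higher in functional teeth, where the 5 with a row summed to 89.1 to 242 CPM, against 35.1 to 47.2 CPM in developing teeth, and 4 of the 5 rose. The 5 odontoclast markers summed to 339 to 1760 CPM in functional and 107 to 282 CPM in developing libraries, with none called. The part of these in the ALDH1A2 values was not tested.

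ALDH1A3, a related enzyme that in mouse makes retinoic acid in the eye and nasal region, had 22.5, 29.0, 47.1 and 40.6 CPM in functional replicates 1 to 4, against 114, 39.2, 42.7 and 25.6 CPM in developing replicates 1 to 4. Developing replicate 1 stood alone, and the other 7 libraries overlapped between 22.5 and 47.1 CPM. Means were 34.8 ± 11.1 CPM in functional teeth and 55.5 ± 40.0 CPM in developing teeth, with a log2 fold change of -0.67 ± 0.46 (adjusted p = 0.425). Without developing replicate 1 the log2 fold change was -0.02. All 8 deposited values of ALDH1A3, as of RARG and STRA6, were not whole beyond a tolerance of 0.001. Those of ALDH1A2, RARA and RARB were whole. The values are kallisto estimates per gene, and how reads came to be divided was not examined.

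Counts of the 2 enzymes were also set against each other inside each library, which no scaling of libraries can change. There were 12.1, 16.3, 7.78 and 2.57 ALDH1A2 counts per 100 ALDH1A3 counts in functional replicates 1 to 4, against 0.966, 1.76, 2.06 and 1.05 in developing replicates 1 to 4. Every functional library lay above every developing library, with the male functional library nearest to them. The nearest values, 2.57 and 2.06, rest on 24 and 17 ALDH1A2 counts, and counting error was not set against this gap. The mean ratio was 9.69 ± 5.9 in functional and 1.46 ± 0.537 in developing teeth (SD, n = 4). Within replicate numbers 1 to 4 the functional ratio was 12.5, 9.29, 3.77 and 2.44 times the developing one. The value for number 1 rests largely on ALDH1A3, at 22.5 CPM in functional and 114 CPM in developing replicate 1. ALDH1A2 had 2.71 and 1.11 CPM there. The ratio is given as a description, with no test, and how many other gene pairs separate the tissues was not examined.

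**Figure D2:**
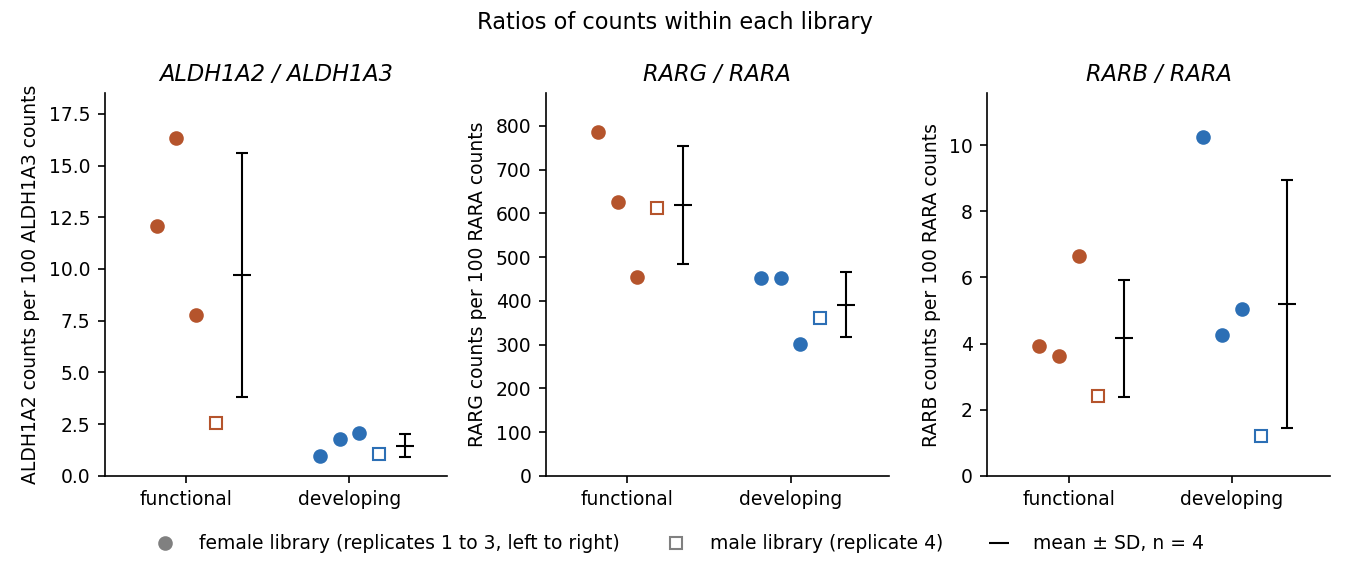
Counts of one gene per 100 counts of another (vertical axes, linear from 0) within each library, in functional and developing teeth. Circles are female libraries, open squares male libraries, bars the mean ± SD of 4 libraries. ALDH1A2 to ALDH1A3 and RARG to RARA do not overlap between tissues, and RARB to RARA does. The nearest functional and developing values are 2.57 and 2.06 for ALDH1A2 to ALDH1A3, and 454 and 452 for RARG to RARA.

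Among the receptors, RARG showed the most even separation. RARG, the retinoic acid receptor prominent in skin and cartilage in mouse, had 101, 91.4, 77.7 and 109.7 CPM in functional replicates 1 to 4, against 65.0, 73.2, 65.0 and 68.9 CPM in developing replicates 1 to 4. Every functional library lay above every developing library. The developing libraries spread little, at a coefficient of variation of 5.74%, against 14.5% in functional teeth. Means were 95.1 ± 13.8 CPM in functional teeth and 68.0 ± 3.9 CPM in developing teeth, a log2 fold change of 0.48 ± 0.14 (1.4-fold, adjusted p = 0.108). The other fits gave log2 fold changes between 0.41 and 0.57, and DESeq2 an adjusted p of 0.00982, the only fit to call it. TMM factors were 0.752 to 0.853 in functional and 1.104 to 1.386 in developing libraries. The RARG separation in CPM rests on this scaling, and no fit left library scaling out. Set against unscaled library totals, RARG did not separate the tissues. Functional replicate 3 had 1504 RARG counts of 22923362, a smaller share than developing replicate 3, with 1254 of 14144573. The part of the macrophage and odontoclast marker levels in the RARG values was not tested.

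RARA, the receptor found in most tissues, had 12.9, 14.6, 17.1 and 17.9 CPM in functional replicates 1 to 4, against 14.4, 16.2, 21.6 and 19.1 CPM in developing replicates 1 to 4. The ranges overlapped, although within each replicate number the functional library was the lower. The log2 fold change was -0.19 ± 0.17 (adjusted p = 0.544), and it was 0.04 without developing replicates 3 and 4. Within libraries there were 785, 626, 454 and 613 RARG counts per 100 RARA counts in functional replicates 1 to 4, against 452, 451, 301 and 360.4 in developing replicates 1 to 4. The groups did not overlap in this ratio, but functional replicate 3, at 454, lay next to developing replicates 1 and 2. These 3 libraries held 331, 351 and 352 RARA counts, and counting error was not set against the gap. How many other gene pairs separate the tissues was not examined.

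RARB, the receptor whose own gene is a classic retinoic acid target in mammals, had the fewest counts. It had 0.508, 0.527, 1.14 and 0.435 CPM in functional replicates 1 to 4, against 1.48, 0.691, 1.09 and 0.231 CPM in developing replicates 1 to 4, from 6 to 36 counts a library. The ranges overlapped almost fully. The log2 fold change was -0.42 ± 0.58 (adjusted p = 0.701), and -0.01 without developing replicate 1. In RARB counts per 100 RARA counts, functional libraries lay between 2.43 and 6.65 and developing libraries between 1.21 and 10.3.

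**Figure D3:**
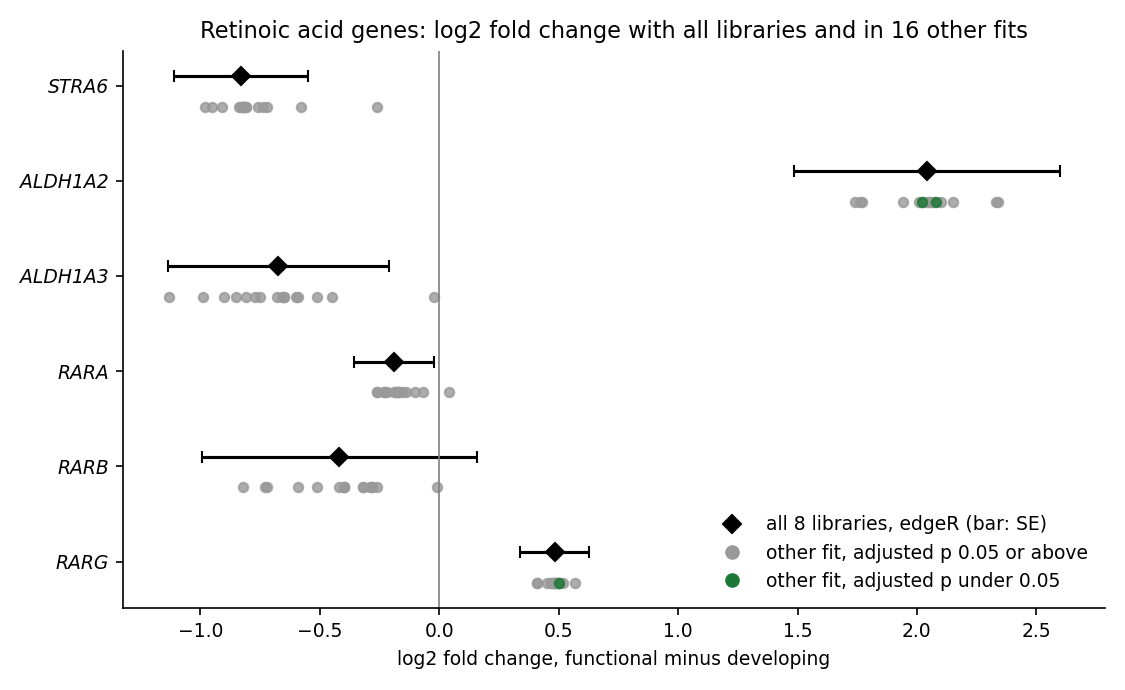
Log2 fold change, functional minus developing (horizontal axis), of the 6 genes with all 8 libraries (black diamonds, bars are SE) and in 16 other fits (dots). Green dots mark adjusted p under 0.05, reached by ALDH1A2 in 2 fits and by RARG in 1, and RARA crosses zero in 1 fit.

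The male libraries were then set against the female ones in a model that also held tissue. Here ALDH1A2 was the only one of the 6 genes called, where 4.68% of all genes tested were. It was lower in the male libraries, with a log2 fold change of -1.78 ± 0.38, male minus female (adjusted p = 0.0391). This term, here and for the genes below, rests on replicate 4 alone in each tissue. The fit counted those libraries as independent, and with no other male library its p-values may not measure the spread among males. Their deviations from the tissue means correlated at 0.678. Sex was not removed from these deviations, so the value also holds the shift that the term describes. The male libraries held 1.04 CPM in functional teeth and 0.269 CPM in developing teeth, and the female libraries 2.71 to 4.75 CPM in functional and 0.691 to 1.11 CPM in developing teeth. The term stayed between -1.88 and -1.66 when each library was left out, but its adjusted p passed 0.05 without functional replicates 2, 3 or 4 or developing replicates 1, 3 or 4, up to 0.331 without functional replicate 4. RARB had -1.40 ± 0.60 as its log2 fold change (adjusted p = 0.237), and the remaining 4 genes had adjusted p-values of 0.558 to 0.715. The interaction of tissue and sex passed for none of the 6 in edgeR (lowest adjusted p 0.937, and 0 of the 6 at an unadjusted p under 0.05), and for 0% of all genes.

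The male functional library also differed from the female ones in markers of other cells. Odontoclast markers summed to 1760 CPM in the male functional library and to 339 to 625 CPM in the female functional libraries. Macrophage markers summed to 242 CPM in the male functional library and to 89.1 to 99.3 CPM in the female functional ones. Their part in the male minus female value of ALDH1A2 was not tested.

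Genes with a similar profile were taken by a fixed rule, the 3 named genes with the highest Pearson r of log2 CPM over the 8 libraries, among 11862 compared. The 8 points share library depth and tissue, and 80 genes for ALDH1A2 and 68 for RARG reached at least 0.9, so these are descriptions only. For ALDH1A2 they included TM9SF2, a membrane protein of endosomes (r = 0.98), and YPEL4 (r = 0.97). For RARG they were HAO2, an oxidase of hydroxy acids (0.95), the adrenergic receptor gene ADRB1 (0.95) and AP5B1, an adaptor protein subunit (0.95). HAO2 and ADRB1 rose in functional teeth, with log2 fold changes of 1.5 (adjusted p = 0.0276) and 1.69 (adjusted p = 0.0328). AP5B1 (0.50, adjusted p = 0.16), TM9SF2 (0.24, adjusted p = 0.32) and YPEL4 (0.79, adjusted p = 0.144) were not called. ALDH1A2 and RARG were themselves taken as the synthesis and receptor genes with the smallest p between tissues. Genes alike to them over the same libraries share that difference by choice, so these p-values add no separate evidence.

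The wider retinoid pathway was described with a list of 77 other genes, of which 64 had a row and 48 were tested. Of the 48, 1 fell, 0 rose and 47 did not pass, against the 2.81% called over all genes. An unadjusted p under 0.05 was reached by 3 with a positive and 5 with a negative log2 fold change, against 9.53% and 12.8% of all genes. The median was -0.15, and 19 were positive and 29 negative, against 50.2% positive over all genes. Functional libraries lay above developing ones in 2 genes and below in 4, against 6.42% and 8.6% of all genes tested.

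**Figure D4:**
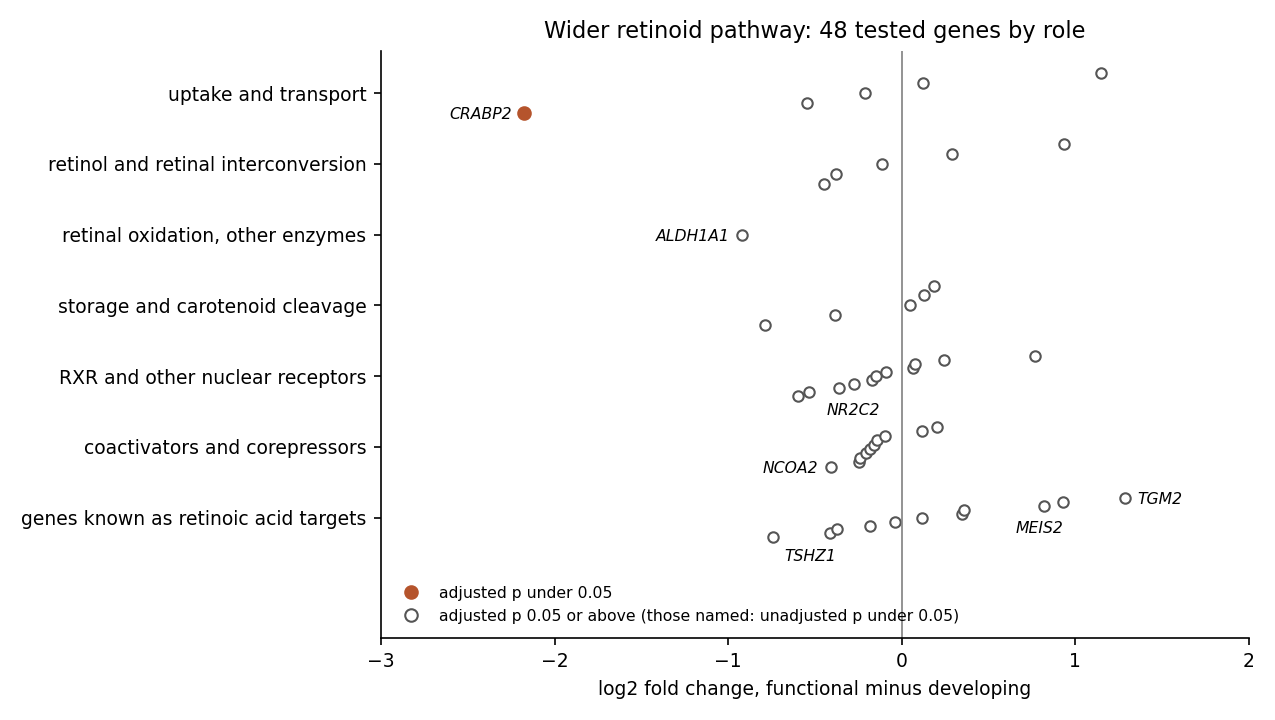
Log2 fold change, functional minus developing (horizontal axis), of the 48 tested genes of the wider retinoid list, by role (rows). The filled point, CRABP2 at -2.17, passed the test over all genes, and every named open point had an unadjusted p under 0.05.

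The gene that fell was CRABP2, the intracellular carrier that hands retinoic acid to its receptors. It had 202, 144, 140.05 and 233 CPM in functional replicates 1 to 4, against 379, 500.0, 1069 and 1299 CPM in developing replicates 1 to 4. Every functional library lay below every developing library, and developing replicates 3 and 4, which also held the most STRA6, were the highest. Means were 179.9 ± 45.5 CPM in functional teeth and 812 ± 443 CPM in developing teeth, a log2 fold change of -2.17 ± 0.42 (adjusted p = 0.0403). The adjusted p was 0.0595 with the replicate number as a block. The call was also lost among the female libraries (0.125), without any 1 of the functional libraries (0.0747 to 0.124), without developing replicate 3 (0.11) or 4 (0.0766), and without both (log2 fold change -1.28, adjusted p = 0.134). With each library left out, the log2 fold change of CRABP2 lay between -2.39 and -1.85. Over all genes, the female libraries alone gave 1 higher and 2 lower, against 124 and 312 in the main fit. In DESeq2 the adjusted p of CRABP2 was 2.04e-05. Summed epithelium markers, mostly enamel matrix genes in developing teeth, were below the developing range in each functional library as well, and were highest in developing replicates 3 and 4, and their part in the CRABP2 values was not tested.

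Other carriers gave no call. RBP5, a cellular retinol-binding protein, had 95.7 to 174 CPM in functional and 97.0 to 172 CPM in developing libraries (log2 fold change 0.12 ± 0.25, adjusted p = 0.8). TTR, transthyretin, the blood carrier that binds RBP4, had 1.15 ± 0.70 as its log2 fold change (adjusted p = 0.365). RBP4 itself was not tested, with at most 6 counts in any library, and CRABP1 had no count in any library, which allows up to 0.115 to 0.169 CPM per library (3 counts).

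Of 5 tested genes that interconvert retinol and retinal, none passed between tissues in the main edgeR fit (all libraries, no covariate). This held at an adjusted and an unadjusted p under 0.05, where 2.81% and 22.3% of all genes passed. DESeq2 called none, where it called 9.69% of the genes it tested. With 5 genes, no call is near these shares. RDH10, the main retinol dehydrogenase upstream of ALDH1A enzymes, had 58.4, 58.8, 58.4 and 36.0 CPM in functional replicates 1 to 4, against 94.2, 84.8, 76.7 and 33.2 CPM in developing replicates 1 to 4. In the female libraries the tissues did not overlap, and the male libraries were the lowest of each tissue. How many of all genes separate in the female libraries was not counted. Its log2 fold change between tissues in the main edgeR fit was -0.45 ± 0.32 (unadjusted p = 0.198, adjusted p = 0.444). In edgeR with the male and female covariate it was -0.38 (unadjusted p = 0.0321, adjusted p = 0.153). Among the female libraries it was -0.54 (unadjusted p = 0.00267, adjusted p = 0.131). With the replicate number as a block it was -0.38 (unadjusted p = 0.0591, adjusted p = 0.206). The shares of all genes at an unadjusted p under 0.05 in these 3 fits were not counted. RDH10 was named after its values were seen, so these unadjusted values are descriptions only. Male minus female, the log2 fold change was -1.01 ± 0.18 (adjusted p = 0.0173). RDH10 and NRIP1 were the 2 genes called in that comparison among the 48 tested of the wider list, where 4.68% of all genes were. The reverse enzyme DHRS3, a retinal reductase, had 49.1 to 107 CPM in functional and 55.7 to 125 CPM in developing libraries (log2 fold change -0.11 ± 0.30, adjusted p = 0.847). RDH12 (-0.38 ± 0.17, adjusted p = 0.245) and RDH14 (0.29 ± 0.17, adjusted p = 0.36), also of the retinol dehydrogenase family, did not pass.

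ALDH1A1, the remaining member of the ALDH1A enzymes, had 31.8, 32.4, 24.3 and 48.5 CPM in functional replicates 1 to 4, against 42.5, 44.1, 120.1 and 52.8 CPM in developing replicates 1 to 4. Developing replicate 3 stood apart, and the other libraries overlapped through the male functional one. Its log2 fold change was -0.92 ± 0.38 (adjusted p = 0.199), and -0.43 without that library (adjusted p = 0.405). ALDH1A2 was thus the only one of the 3 ALDH1A genes with a positive value. Among genes of storage and carotenoid cleavage, LRAT, which stores retinol as esters, was at 0.05 ± 0.38 on the log2 fold change scale. DGAT1 (0.19 ± 0.20) and PNPLA4 (-0.39 ± 0.41) had adjusted p-values of 0.611 and 0.614. None of the 5 passed, in the main edgeR fit (also at an unadjusted p under 0.05) or DESeq2. Over the genes each tested, edgeR called 2.81% (22.3% at the unadjusted level) and DESeq2 9.69%.

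The genes of the RXR partners of the receptors did not pass. RXRA had 52.3 to 63.2 CPM in functional and 57.9 to 70.2 CPM in developing libraries (log2 fold change -0.17 ± 0.13, adjusted p = 0.468). RXRB had 93.9 to 145 CPM in functional and 87.7 to 113 CPM in developing libraries (0.24 ± 0.17, adjusted p = 0.431), and RXRG had 5 to 19 counts in functional and 1 to 18 counts in developing libraries. NR2C2, an orphan receptor gene, had -0.36 ± 0.15 as its log2 fold change (adjusted p = 0.214). Of the 10 coactivator and corepressor genes none passed between tissues in the main edgeR fit or DESeq2. Those called 2.81% and 9.69% of the genes they tested. An unadjusted p under 0.05 in the main edgeR fit was reached by 1, against 22.3% of all genes. Of the 10, 8 had a negative log2 fold change, with NCOA2 at -0.41 ± 0.15 (adjusted p = 0.176) and NCOA3 at -0.25 ± 0.12 (adjusted p = 0.274). NRIP1, a corepressor that is induced by retinoic acid in mammalian cells, had 23.7, 21.7, 16.5 and 11.4 CPM in functional replicates 1 to 4, against 20.9, 17.3, 18.2 and 11.1 CPM in developing replicates 1 to 4. It overlapped between tissues (adjusted p = 0.816) and was lower in the male libraries (log2 fold change -0.81 ± 0.18, male minus female, adjusted p = 0.0435).

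Of the 24 listed target genes, 11 were tested and none passed between tissues in the main edgeR fit, against 2.81% of all genes. At an unadjusted p under 0.05 in that fit, 2 had a positive and 1 a negative value, against 9.53% and 12.8% of all genes. TGM2, a transglutaminase induced by retinoic acid in many mammalian cells, had 39.1, 25.4, 54.4 and 35.2 CPM in functional replicates 1 to 4, against 23.6, 15.7, 12.7 and 11.3 CPM in developing replicates 1 to 4. Every functional library lay above every developing library. The log2 fold change was 1.28 ± 0.29 (adjusted p = 0.0573), with an adjusted p of 0.0466 with the male and female covariate and 0.0024 in DESeq2. It was 0.0744 with the replicate number as a block, 0.183 among the female libraries, and between 0.0403 and 0.162 with each library left out, under 0.05 only without developing replicate 1. Macrophage and odontoclast marker sums did not overlap between tissues either, with functional above, and their part in the TGM2 values was not tested. TSHZ1, a zinc finger factor, had -0.41 ± 0.12 as its log2 fold change (adjusted p = 0.0923), again without overlap. The early embryonic targets HOXA2, HOXB1 and FGF8 had no count in any library.

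**Figure D5:**
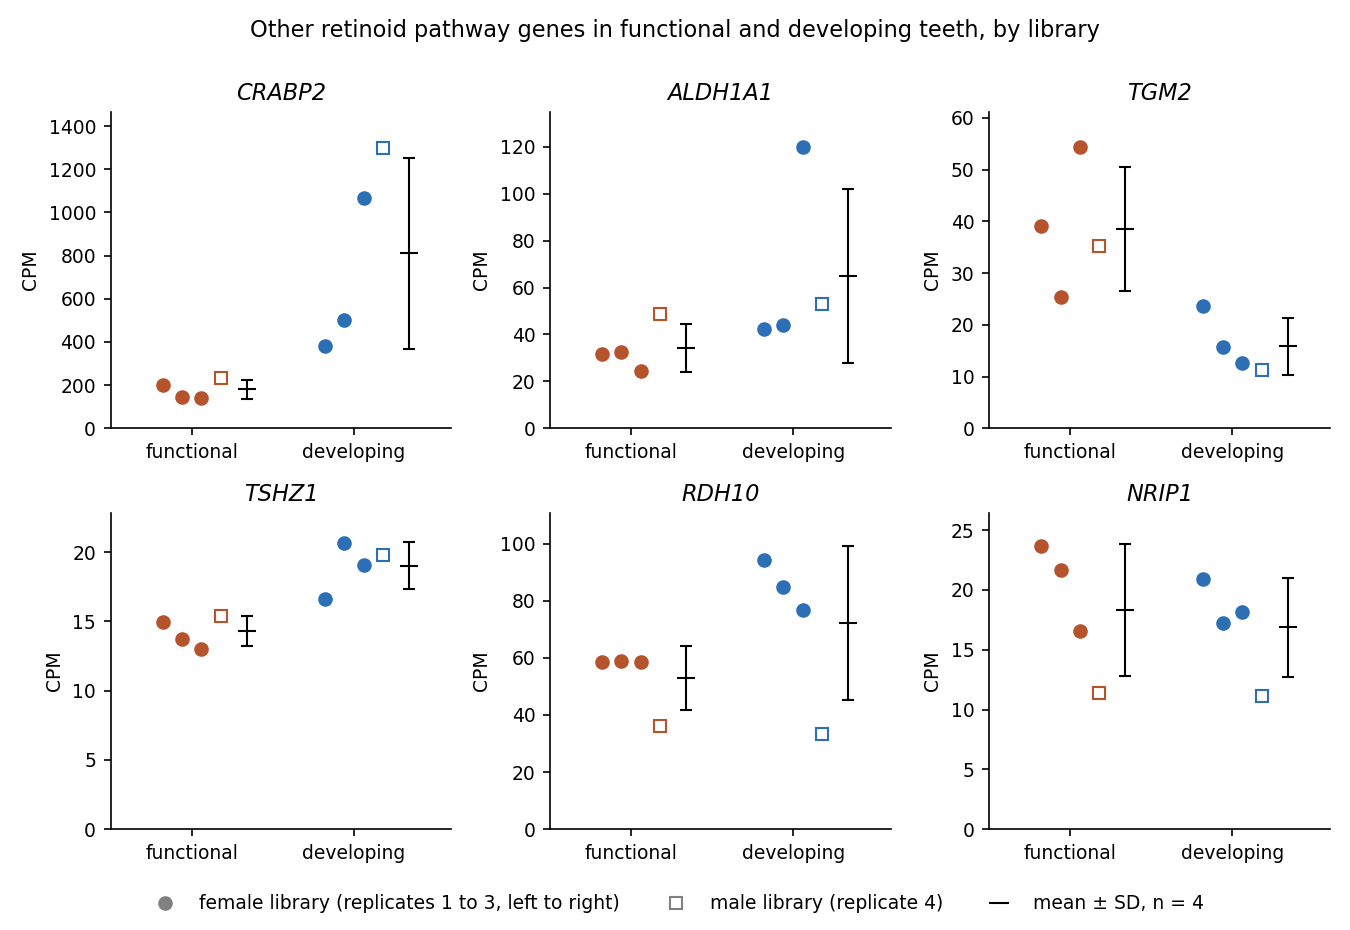
CPM (vertical axes, linear from 0) of 6 other retinoid genes in each library of functional and developing teeth. Circles are female libraries, open squares male libraries, bars the mean ± SD of 4 libraries. CRABP2 and TSHZ1 lie lower, and TGM2 lies higher, in each functional library than in each developing one, and the male libraries are the lowest of each tissue for RDH10 and NRIP1.

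The tested neighbours of the 6 genes in the RefSeq gene order had adjusted p-values of 0.118 (CCDC33, beside STRA6) or more between tissues. AQP9, a water and glycerol channel gene next to ALDH1A2, differed by 0.60 on the log2 scale (adjusted p = 0.339), and POLR2M on the other side by 0.19 (adjusted p = 0.45). CDC6, the replication licensing gene next to RARA, stood at a mean of 1.87 CPM in functional teeth, against 4.72 CPM in developing teeth (difference -1.33 on the log2 scale, adjusted p = 0.139). TOP2B beside RARB stood at a log2 fold change of -0.30 (adjusted p = 0.234).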

How the data were processed

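RNA-seq of 4 functional and 4 developing tooth libraries was used. Libraries were stranded mRNA preparations read as paired ends, per the labels' protocols. The authors deposited estimated counts per gene, not normalized, made with kallisto per the submitters' processing notes; the sources used here give no version, strand setting, annotation or build. Values were rounded, 34.2% of them not being whole. Row names were matched to gene symbols of RefSeq assembly MPM_Emac_v1.0, used for names and gene order only; 81 of 22488 names did not match (0.909% to 1.41% of each library) and were left out.

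Genes were filtered with filterByExpr, normalized by TMM and tested with edgeR 4.0.16 (R 4.3.3) as functional minus developing, without covariate; standard errors are the log2 fold change over the square root of F. DESeq2 1.42.0, RLE scaling, no filter, the replicate block, a male and female covariate, female libraries alone, removal of COL1A1 and COL1A2 and leaving out each library were alternatives. Deviations from the tissue mean correlated at 0.159 to 0.678 between same-numbered libraries, over 0.1 in all 4 pairs, and differently numbered ones reached 0.413. Of the 8 libraries, 4 correlated best with their own number. The main fit did not use the numbers as pairs, and only the replicate block did. Scripts were tested on simulated counts.

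The 9 symbols and the lists were chosen with earlier results of these data known. Named were all members, and from the wider list every called gene and the 2 with the smallest p per role; the remaining genes named there (RBP4, RBP5, CRABP1, RDH10, DHRS3, LRAT, RXR genes, NRIP1 and targets without counts), the marker genes named, the ratios and the neighbours were chosen after values were seen. Some genes that these rules or marker lists hold are not reported here, though counts and sums over the lists include them. Floors cover counting error only, while the standard errors come from the edgeR fit and include spread among libraries.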

Additional observations from a re-analysis of the deposited data

Results flagged for a closer look

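Among 19 named genes, checked in each group of 4 libraries by the gap of the highest or lowest library over the range, 5 of 38 groups held a library far from the other 3; chance gives about 1 in 20. RARB stood at 1.14 CPM in functional replicate 3, and ALDH1A1 at 120.1 CPM in developing replicate 3. In functional replicate 4, the male library, NR2C2 stood low at 9.60 CPM, RDH14 low at 37.8 CPM and DGAT1 high at 33.6 CPM. Without the named library the log2 fold change of RARB was -0.82, and that of ALDH1A1 -0.43.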

How the results depend on the processing

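Of 96 values of the 6 genes under other settings, 92 kept their direction and side of the threshold. As none of the 6 was called in the main fit, keeping the side means only that they were again not called. Several of these fits called few genes of all tested. Kept directions include values near 0, as -0.02 for ALDH1A3 and -0.01 for RARB without developing replicate 1. ALDH1A2 passed at 2.08 in DESeq2 and at 2.02 with the male and female covariate, RARG passed at 0.50 in DESeq2, and RARA was 0.04 without developing replicates 3 and 4; the cause was not tested. The male minus female term of ALDH1A2 lay between -1.88 and -1.66 with each library left out, and that of ALDH1A3 between -1.36 and 0.28 (0.28 without developing replicate 4).

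With the replicate block (ALDH1A2 2.01, adjusted p = 0.057) no call of the 6 genes changed, the wider list had 0 lower genes, and 69 genes were higher and 151 lower overall. DESeq2 called 2 of the 6 and 2 of the wider list higher, with 719 higher and 982 lower overall. The male and female covariate gave 1 and 1 higher, with 246 higher overall. Female libraries alone gave 0 lower in the wider list, and 1 higher and 2 lower overall. With each library left out, the wider list had 0 to 1 higher and 0 to 1 lower, and all genes 2 to 184 higher and 5 to 457 lower. Without functional replicates 1, 2, 3 or 4 or developing replicates 3 or 4, all-gene calls moved by over 1.5 times. The low counts of ALDH1A2 and RARB limit their precision.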
